A study of Caenorhabditis elegans with 60 samples.

Results

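The 10 genes described here encode components of germ granules, the RNA and protein condensates that sit on the cytoplasmic face of germ cell nuclei in Caenorhabditis elegans. They were chosen by name, with earlier results of these data known: pgl-1 (ZK381.4), pgl-3 (C18G1.4), deps-1 (Y65B4BL.2), glh-1 (T21G5.3), glh-2 (C55B7.1), glh-4 (T12F5.3), znfx-1 (ZK1067.2), car-1 (Y18D10A.17), cgh-1 (C07H6.5) and meg-1 (K02B9.1). All 10 were found among the 22844 genes of the gonad mRNA table. All 10 were also among the 3640 loci that the gonad small RNA table marks as targets of the Argonaute CSR-1, and none was marked there as a target of the mutator pathway.

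P granules collect mRNAs as they leave the nucleus, and the small RNA machinery of the germ line is concentrated in and around them. PGL proteins form the scaffold, GLH proteins are Vasa-like RNA helicases, and ZNFX-1 marks an adjoining compartment, the Z granule, that serves the inheritance of small RNAs. The mRNAs of granule components are themselves copied into 22G-RNAs, short antisense RNAs made by RNA-dependent RNA polymerases; those bound by CSR-1 are associated with expressed germline genes, while those bound by WAGO Argonautes such as WAGO-1 and HRDE-1 are associated with silencing. HENN-1 is the methyltransferase that modifies the 3′ end of piRNAs and of a part of the other small RNAs. In general, 22G-RNAs lack this mark, and periodate oxidation can deplete small RNAs without it from libraries.

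The series asked what the loss of henn-1 does to small RNA classes and mRNAs, in 60 samples that fall into 8 sets. Gonads were dissected from gravid adults, 68 to 70 h at 20 C, of the wild type N2 and of henn-1(pk2295) III, with 3 small RNA and 3 mRNA libraries for each genotype; a note on the gonad small RNA samples speaks of frozen whole worms, against their label, and the label was followed. Oxidation with sodium periodate was tested on whole animals of N2 and of rde-1(ne219) V, a mutant of the Argonaute RDE-1, with 3 oxidized and 3 not oxidized libraries each. The labels put the not oxidized animals at the L4 stage, 52 h; the 6 oxidized libraries are called L4 in one label and gravid adults of 68 h in another, so that stage and oxidation cannot be told apart if the second label holds. Immunoprecipitations (IPs) used whole gravid adults, 68 h, of 2 tagged strains, with 1 input and 1 IP library each. HRDE-1 was pulled down with anti-FLAG from FLAG::hrde-1 II, and WAGO-1 with anti-GFP from a strain that carries, on chromosome I, the wago-1 allele cmp92[(GFP + loxP + 3xFLAG)::wago-1] together with the mut-16 allele cmp41[mut-16::mCherry + loxP]. All of these small RNA libraries were treated with polyphosphatase, and no henn-1 allele is given for the rde-1 or tagged strains. Nothing in the labels says whether the libraries of a group are separate cultures, so each p-value here reflects only library-to-library spread, which may be technical.

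The henn-1 mRNA itself stood at 2192, 2240 and 2298 normalized counts in the 3 wild type gonad libraries and at 234, 249 and 229 in the mutant libraries, with no overlap. Reads recovered from the small RNA tables ranged from 4215264 to 8745475 per gonad library and from 6311071 to 13613629 per whole-animal library. In these libraries single values rested on 37 reads or more for every granule gene but meg-1, whose 22G-RNAs rested on 0 to 66 reads. The remaining 6 small RNA tables listed none of the 10 loci. Reads could be shared between pgl-1 and pgl-3 and between glh-1 and glh-2, which are close relatives, and deps-1 overlaps another protein-coding gene while cgh-1 holds a snoRNA gene, so their values carry that uncertainty.

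Wild type gonads carried widely different amounts of 22G-RNA per mRNA across the 10 genes. The ratio of 22G-RNA to mRNA signal removes gene length, but its absolute scale is arbitrary because the tables were normalized separately, so each gene is placed among 3599 CSR-1 class loci with an mRNA signal of at least 10. Their median ratio was 0.157, with quartiles at 0.0806 and 0.318. The helicase gene glh-4 had the highest ratio of the 10, 1.64, at percentile 97.5 of the class. Next came znfx-1 at 1.27, percentile 96.6, and car-1, which encodes an LSm-domain repressor of translation, at 0.904, percentile 93.7. The other Vasa-like genes glh-1 and glh-2 stood at 0.474 and 0.390, and the scaffold genes pgl-3, pgl-1 and deps-1 at 0.315, 0.269 and 0.260. A value near the middle of the class, 0.186 at percentile 56.5, belonged to cgh-1, which encodes a DEAD-box helicase related to the yeast Dhh1 protein. At the bottom lay meg-1, a gene for an intrinsically disordered protein of embryonic P granules, with 0.0174 at percentile 1.86.

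On the log2 scale the standard deviation of these ratios, combined from the 3 libraries of each assay, was 0.10 to 0.21 for 9 of the genes and 0.59 for meg-1. The log2 ratios were 0.72 for glh-4, 0.35 for znfx-1, -0.15 for car-1 and -1.08 for glh-1, steps larger than that spread. From glh-2 (-1.36) through pgl-3 (-1.67) and pgl-1 (-1.89) to deps-1 (-1.94) the steps were smaller, and pgl-1 and deps-1 did not differ beyond it. The gap from cgh-1 (-2.43) down to meg-1 (-5.80) was the widest. In henn-1 gonads the same log2 ratios differed from the wild type ones by -0.014 (glh-1) to 0.30 (deps-1).

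**Figure D1:**
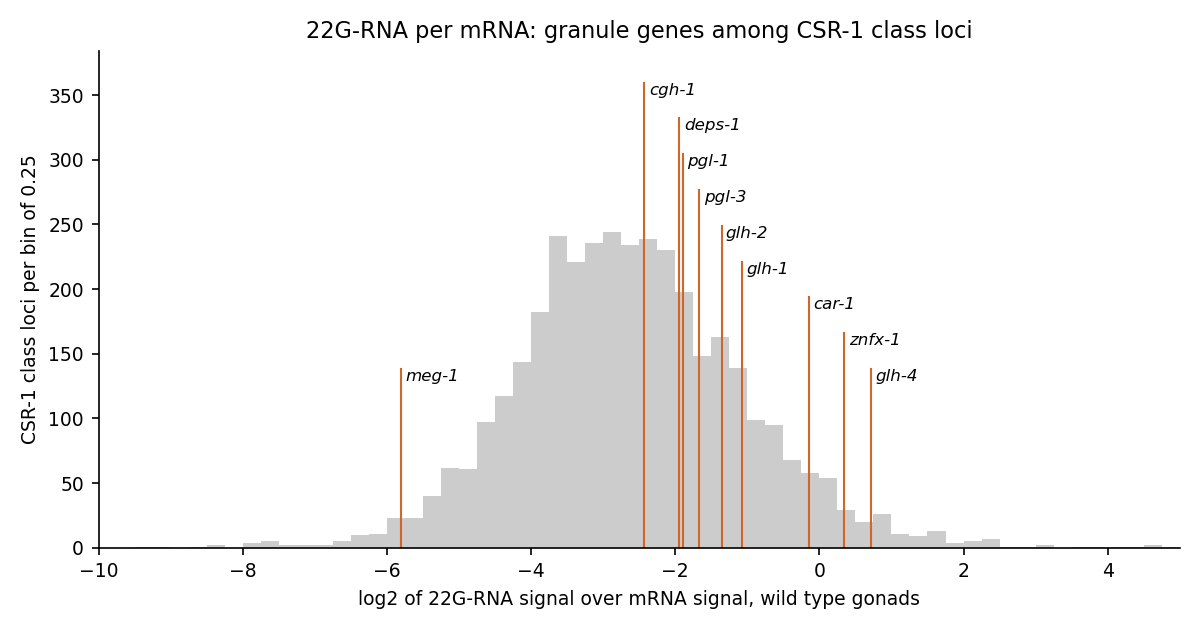
Histogram of the log2 ratio of 22G-RNA signal to mRNA signal in wild type gonads for 3599 CSR-1 class loci (grey, bins of 0.25), with a vertical line for each of the 10 granule genes (line height only separates the names). Here glh-4, znfx-1 and car-1 lie in the right tail, cgh-1 near the centre and meg-1 in the left tail at -5.80.

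In henn-1 gonads the mRNAs of 7 of the 10 genes were lower than in wild type gonads, by 10.5% to 17.8%, and none was higher. These 7 were pgl-1, pgl-3, deps-1, glh-2, glh-4, znfx-1 and cgh-1, each with an adjusted p under 0.05 in limma on log2(value + 1). Over the whole table, 12.4% of 8750 tested mRNAs were called lower and 7.44% higher. In the same 7 genes every henn-1 library lay below every wild type library, which held for 21.3% of all tested mRNAs. The median difference of the 10 genes was -0.17 on the log2 scale, beside 0.02 for all tested mRNAs.

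Among the scaffold genes, pgl-1 read 11466, 12207 and 12762 normalized counts in the wild type libraries and 10379, 10496 and 11077 in henn-1. The groups did not overlap, and the log2 difference was -0.19 (SE 0.048, limma adjusted p = 0.0233). Its relative pgl-3 read 8063, 8298 and 8921 against 7281, 6842 and 6649, again without overlap (log2 difference -0.28, SE 0.049, limma adjusted p = 0.00643). Its fall was the largest of the 10 as normalized. The gene deps-1, whose product is needed for P granules to assemble properly, read 3482, 3484 and 3209 against 3102, 2940 and 3067. Its lowest wild type library lay just above its highest mutant library (log2 difference -0.16, SE 0.044, limma adjusted p = 0.0322).

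For the Vasa-like helicases, glh-4 read 4534, 4774 and 5013 in wild type and 3591, 4043 and 4225 in henn-1. All mutant libraries lay below all wild type libraries (log2 difference -0.27, SE 0.061, limma adjusted p = 0.0144). The signal of glh-2 was 2947, 3027 and 3424 against 2545, 2747 and 2759, also without overlap (log2 difference -0.22, SE 0.059, limma adjusted p = 0.0280). For glh-1 the values were 8112, 9006 and 10311 against 7681, 8427 and 8981. Here the groups overlapped, and the difference of -0.12 (SE 0.083, limma adjusted p = 0.306) did not pass the test.

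In the Z granule, znfx-1, an SF1 helicase gene, read 4037, 4134 and 4598 in wild type and 3515, 3526 and 3692 in henn-1. The groups did not overlap (log2 difference -0.25, SE 0.051, limma adjusted p = 0.0114). Of the repressors shared with P bodies, cgh-1 read 6004, 5262 and 5778 against 5128, 5143 and 4991 (log2 difference -0.16, SE 0.049, limma adjusted p = 0.0488). Its second wild type library lay close to the mutant range without entering it. In contrast, car-1 read 3164, 2597 and 3091 against 2572, 2787 and 2930, and its second wild type library fell within the mutant range (log2 difference -0.09, SE 0.075, limma adjusted p = 0.406). The values of meg-1 overlapped as well, with 1997, 1913 and 1841 against 1794, 1877 and 1877 (log2 difference -0.05, SE 0.043, limma adjusted p = 0.424).

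Of 12 general germline markers, 6 were called lower in the same mutant libraries and 0 higher, beside 12.4% and 7.44% of all tested mRNAs. The summed signal of 12 germline marker mRNAs was 108381 to 110895 in wild type and 94227 to 97664 in henn-1; none was at 0, 1 (gld-1) is also on the list of other P granule genes, and their median log2 difference was -0.19. The meiotic chromosome genes on the list were split. Those of syp-1, syp-2 and him-3 had point estimates above 0, at 0.03, 0.09 and 0.04, and did not pass the test. In contrast, htp-3 was called lower (-0.26, limma adjusted p = 0.00573), and rec-8 stood at -0.18 without passing (limma adjusted p = 0.0583). Muscle and contractile sheath markers summed to 1286 to 1579 in wild type and 2141 to 3015 in henn-1, with 10 of 14 tested called higher. Whether this signal came from the gonad sheath or from other muscle was not tested. Somatic gonad markers summed to 1200 to 1288 against 1406 to 1598, with 2 of 3 tested called higher. Fewer germ cells and less RNA per germ cell cannot be told apart in these bulk libraries, and the part of tissue composition in the granule gene differences was not tested. After each library was centred on the 12 germline markers, 0 of the 10 genes were called in limma and 1 had an unadjusted p under 0.05. Of all 8750 tested mRNAs, 1.13% were then called lower and 2575 were called higher. The centring shifted each of the 10 differences by 0.14. The median of the 10 genes was then -0.03, beside 0.17 for all tested mRNAs. Those of glh-1, car-1 and meg-1 turned to 0.02, 0.05 and 0.09.

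Sperm markers summed to 326, 654 and 350 in wild type and 548, 419 and 1151 in henn-1, so that wild type library 2 and henn-1 library 3 stood highest; 0 of 10 tested were called in limma, and 1 had an unadjusted p under 0.05. Without these 2 libraries 7 of the granule genes were called lower, deps-1 dropping out and car-1 entering, beside 584 of 8527 tested mRNAs called lower. Intestine markers summed to 54.5 to 277 in wild type and 88.7 to 261 in henn-1, and epidermis markers to 797 to 937 and 779 to 938, with 0 of 2 tested called in limma in each list (also 0 in each at an unadjusted p under 0.05). Of the 5 epidermis markers, bli-1, dpy-7 and rol-6 were at 0 in all libraries.

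Single libraries and scaling affected the count of mRNA calls. Leaving out wild type library 2 left 4 genes called lower, beside 532 of 8732 tested mRNAs. Leaving out wild type library 3, henn-1 library 1 or henn-1 library 2 left 3 each, beside 434 of 8842, 834 of 8749 and 451 of 8763. With all libraries, 1082 of 8750 mRNAs were called lower. Scaling all libraries to equal totals also left 3, namely pgl-3, glh-4 and znfx-1, beside 7.71% of all mRNAs called lower. Both pgl-3 and znfx-1 were called in 12 of 13 alternatives and glh-4 in 11, whereas pgl-1 and glh-2 were called in 7 and deps-1 and cgh-1 in 4.

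**Figure D2:**
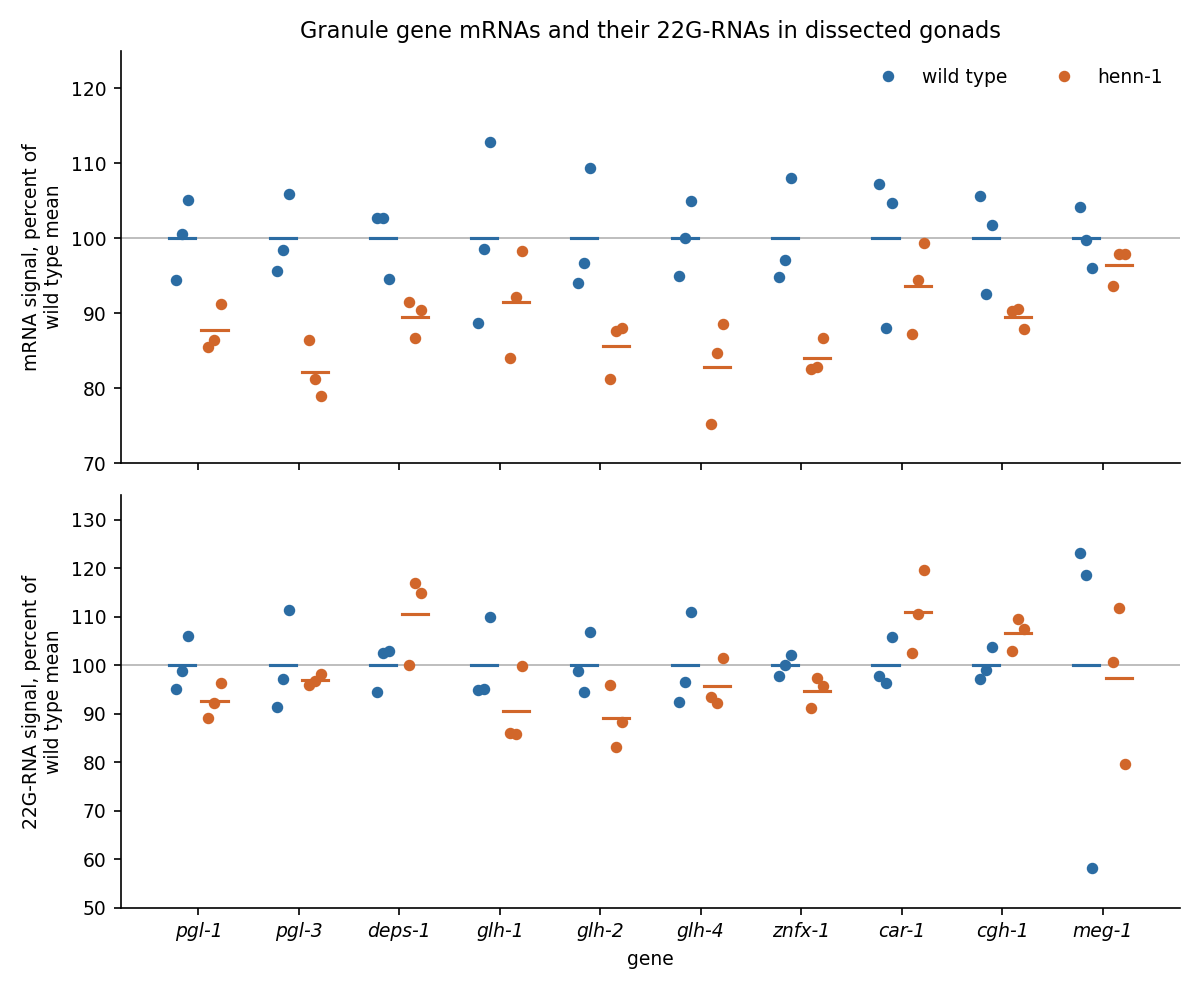
Each point is 1 gonad library (blue wild type, orange henn-1; 3 per group) as a percent of the gene's wild type mean, with short lines at group means; the upper panel shows mRNA and the lower panel 22G-RNA, and neither axis starts at 0. In the mRNA panel the groups separate for 7 genes, and in the 22G-RNA panel for znfx-1 only, beside 21.3% of all tested mRNAs and 10.2% of CSR-1 class loci with all henn-1 libraries below wild type.

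Genes with related roles were read in the same libraries, where 12.4% of all tested mRNAs were called lower and 7.44% higher. Of 25 other P granule genes, 10 were called lower in henn-1 and 0 higher, with a median log2 difference of -0.14; the 4 with the lowest adjusted p were the helicase gene vbh-1 (-0.19), the poly(A) polymerase gene gld-4 (-0.22), its partner gls-1 (-0.23) and the Argonaute gene wago-1 (-0.23). Of 6 other Z granule genes, 4 were called lower and 0 higher, led by pid-2 (-0.30) and wago-4 (-0.39), the Argonaute that works with ZNFX-1. Among 10 P body and repressor partners of CAR-1 and CGH-1, 5 were called lower and 1, lsm-1 (0.20), higher; let-711 (-0.27), patr-1 (-0.24), ifet-1 (-0.24) and ife-3 (-0.21) had the lowest adjusted p. Of 17 genes of mutator and SIMR foci, which lie next to the Z granule, 4 were called lower and 0 higher. These were rde-11 (-0.66), mut-16 (-0.17), mut-7 (-0.23) and rsd-6 (-0.13).

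**Figure D3:**
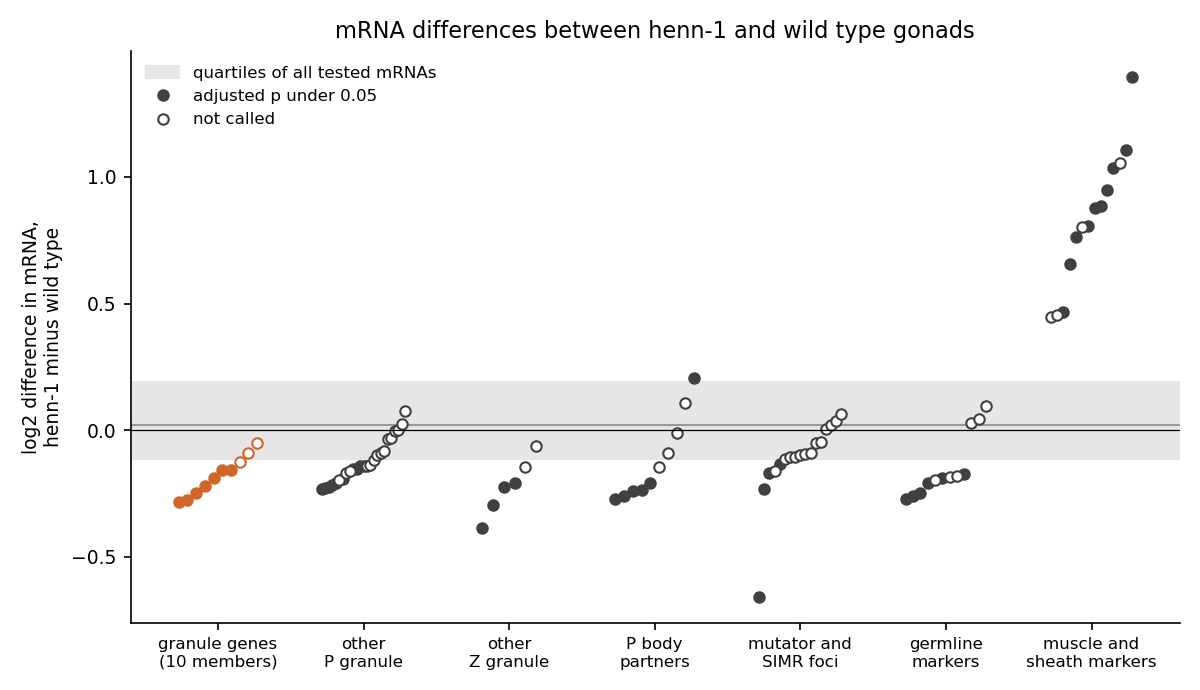
Log2 difference in mRNA between henn-1 and wild type gonads for the 10 granule genes (orange), 4 related lists and 2 lists of tissue markers; 1 point is 1 tested gene, filled where the limma adjusted p is under 0.05, and the grey band spans the quartiles of all 8750 tested mRNAs around their median of 0.02. The granule genes lie between -0.28 and -0.05, in the same range as most germline markers, and the muscle and sheath markers lie above 0.

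The 22G-RNAs against the 10 genes did not pass the test in henn-1 gonads, in either direction. In limma 0 of 10 were called, and 1, glh-2, had an unadjusted p under 0.05; the edgeR quasi-likelihood test on recovered reads called 6 lower, beside 28.6% of the CSR-1 class. Of all 9456 small RNA features tested, 15.9% were called lower and 42% higher, and in the CSR-1 class 5.05% lower and 8.95% higher. The log2 differences ran from -0.17 to 0.15, with a median of -0.05 beside 0.04 for the CSR-1 class, and 6 lay below 0.

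For the scaffold genes, 22G-RNAs of pgl-1 read 3106, 3227 and 3462 normalized counts in wild type and 2907, 3013 and 3146 in henn-1, with 1 mutant library inside the wild type range (log2 difference -0.11, SE 0.063, limma adjusted p = 0.163). Those of pgl-3 overlapped fully, with 2426, 2579 and 2953 against 2546, 2564 and 2607 (-0.04, SE 0.075, limma adjusted p = 0.685). For deps-1 the point estimate went the other way, 834, 905 and 908 against 882, 1031 and 1013 (0.14, SE 0.075, limma adjusted p = 0.132). In each of the 3 scaffold genes the groups overlapped.

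Among the helicases, glh-2 came closest to the threshold, with 1207, 1155 and 1307 against 1172, 1016 and 1081 (log2 difference -0.17, SE 0.073, limma adjusted p = 0.0766). For glh-1 the libraries read 4113, 4122 and 4759 against 3724, 3718 and 4329 (-0.14, SE 0.084, limma adjusted p = 0.176). The 22G-RNAs of glh-4 read 7251, 7584 and 8713 against 7328, 7231 and 7965 (-0.06, SE 0.082, limma adjusted p = 0.560). In all these genes at least 1 mutant library lay within the wild type range.

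Of the 10 genes only znfx-1 had groups that did not overlap, beside 10.2% of CSR-1 class loci with all henn-1 libraries lower. It read 5289, 5411 and 5530 against 4928, 5263 and 5173, and its difference of -0.08 (SE 0.058, limma adjusted p = 0.276) did not pass the test. In car-1 the mutant libraries read 2736, 2946 and 3190 against 2608, 2571 and 2821 in wild type (0.15, SE 0.071, limma adjusted p = 0.104). The values of cgh-1 were 1026, 1045 and 1096 against 1087, 1156 and 1134 (0.09, SE 0.058, limma adjusted p = 0.202). Both repressor genes overlapped by 1 library. For meg-1, 41.2, 39.6 and 19.5 against 33.6, 37.4 and 26.6 left the difference unresolved (0.02, SE 0.30, limma adjusted p = 0.960).

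The scaling moved these small differences, and for deps-1, car-1, cgh-1 and meg-1 it changed their sign; those of the other 6 genes were below 0 as normalized, under TMM factors, under equal totals and in edgeR. In the same libraries the median piRNA locus was higher in henn-1 by 2.90 on the log2 scale as normalized. TMM factors shifted the 10 differences by -0.26 and equal totals by -0.085. Under TMM factors 7 were then called lower, beside 46.4% of the CSR-1 class, and under equal totals 4, beside 11.9% of the class. Centring on the CSR-1 class left 0 called in limma, with 1 at an unadjusted p under 0.05. Without henn-1 library 1, glh-2 was called lower and deps-1 and car-1 higher.

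As a share of the CSR-1 class, which does not depend on the scaling, the 10 genes together made up 1.34% to 1.48% in the 3 wild type gonad libraries and 1.34% ± 0.046 (SD, n = 3), at most 1.39%, in the mutant ones, and the ranges overlapped. In the whole CSR-1 class 8.95% of loci were called higher and 5.05% lower. Of 22 tested other P granule loci, meg-3 (0.51) was called higher and meg-2 (-0.54) lower, and of 6 other Z granule loci pid-4 (0.26) higher. Of 10 P body partners dcap-1 (0.23), dcap-2 (0.36) and let-711 (0.28) were called higher, and of 10 mutator and SIMR loci mut-16 (0.28), smut-1 (0.37) and rde-11 higher and mut-7 (-0.16) lower; these and lsm-1 were named after their values were seen. The loci dcap-2, smut-1 and rde-11 belong to the mutator class, which had a median log2 difference of -0.36, and the CSR-1 class shares do not cover them. The 22G-RNAs of rde-11 were higher by 1.09 (limma adjusted p = 7.09e-07).

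In wild type whole animals, oxidized libraries held less 22G-RNA of every tested granule gene. All 9 genes above the filter were called lower, by 62.9% for glh-4 to 84.6% for pgl-1, and none overlapped between the groups, beside 93.8% of CSR-1 class loci without overlap; meg-1 was below the filter. Of all 12383 features 42.9% were called lower, and in the CSR-1 class 91.6% of 3376 loci. The median log2 difference of the class was -2.37, beside -2.31 for the 9 genes. In the same libraries the median piRNA locus stood at 2.06 and the median mutator class locus at -0.69. The falls are thus relative to the other small RNA classes. For meg-1 the signal was 5.41, 4.61 and 11.7 without and 3.55, 0 and 0 with oxidation, too few reads to compare.

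The 22G-RNAs of pgl-1 read 1292, 1581 and 1729 without oxidation and 369, 203 and 139 with it (log2 difference -2.80, SE 0.32, limma adjusted p = 1.06e-04). For pgl-3 the libraries read 1059, 1203 and 1410 against 324, 283 and 130 (-2.41, SE 0.32), and for deps-1 668, 687 and 767 against 176, 138 and 105 (-2.36, SE 0.21). The helicase gene glh-1 read 2885, 3202 and 3339 against 933, 397 and 350 (-2.63, SE 0.33), its first oxidized library standing well above the other two. In glh-2, 340, 369 and 451 fell to 65.6, 103 and 66.2 (-2.31, SE 0.24).

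The smallest falls were those of glh-4 and znfx-1. For glh-4 the values were 3191, 3618 and 4067 without and 1658, 1190 and 1187 with oxidation (log2 difference -1.44, SE 0.16, limma adjusted p = 9.16e-05), at percentile 90.3 of the CSR-1 class. For znfx-1 they were 2613, 2879 and 3289 against 1011, 841 and 765 (-1.75, SE 0.14, limma adjusted p = 1.55e-05), at percentile 82.8. Centred on the CSR-1 class, glh-4 (0.76, limma adjusted p = 0.00314) and znfx-1 (0.45, limma adjusted p = 0.0450) were called higher and pgl-1 (-0.60, limma adjusted p = 0.0446) lower, with the other 6 not called. In the class 7.14% of loci were then called higher and 5.07% lower, and its median difference was -0.17. The repressor genes lay between, car-1 with 1357, 1476 and 1669 against 401, 308 and 249 (-2.25, SE 0.19) and cgh-1 with 341, 361 and 476 against 121, 85.8 and 92.7 (-1.97, SE 0.22).

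In rde-1 animals 8 of the 9 tested genes were called lower on oxidation, beside 26% of 12034 features and 67.4% of 3404 CSR-1 class loci. The median of the 9 was -1.37 and that of the class -1.41, beside 2.32 for piRNA loci and -0.22 for mutator class loci. The largest fall was again that of pgl-1, from 1365, 1864 and 2375 to 494, 389 and 632 (log2 difference -1.88, SE 0.25, limma adjusted p = 3.49e-04). Close to it stood glh-1, from 3033, 3822 and 5307 to 1145, 708 and 1647 (-1.84, SE 0.31, limma adjusted p = 0.00131). The smallest were those of glh-4, from 3416, 4096 and 6622 to 2341, 2224 and 3081 (-0.84, SE 0.24, limma adjusted p = 0.0169), and glh-2, from 325, 267 and 648 to 209, 124 and 301. The groups of glh-2 overlapped, and its difference of -0.95 (SE 0.41, limma adjusted p = 0.0734) did not pass the test. It passed under equal totals (-1.18, limma adjusted p = 0.0435) and with the replicate number as a block (limma adjusted p = 0.00308). Without oxidized rde-1 library 1 or 2 the call of glh-4 was lost and 7 genes were called lower, and without oxidized library 3 glh-2 entered and 9 were.

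The 22G-RNAs of pgl-3 went from 994, 1181 and 1848 to 557, 411 and 708 in rde-1 (log2 difference -1.25, SE 0.28), and those of deps-1 from 621, 767 and 1079 to 252, 284 and 301 (-1.52, SE 0.23). For znfx-1, 2187, 2852 and 3920 became 1091, 1072 and 1208 (-1.37, SE 0.21). The repressor genes read 1547, 2240 and 3072 against 678, 674 and 1194 for car-1 (-1.43, SE 0.30) and 319, 497 and 621 against 164, 193 and 258 for cgh-1 (-1.19, SE 0.30). None of these 5 overlapped between the groups, and 8 of the 9 tested genes did not, beside 77.3% of CSR-1 class loci. The signal of meg-1, 9.76, 6.14 and 6.49 against 14.5, 0 and 0, was below the filter. Centred on the CSR-1 class, 0 of the 9 were called in limma in rde-1, with 2 at an unadjusted p under 0.05.

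**Figure D4:**
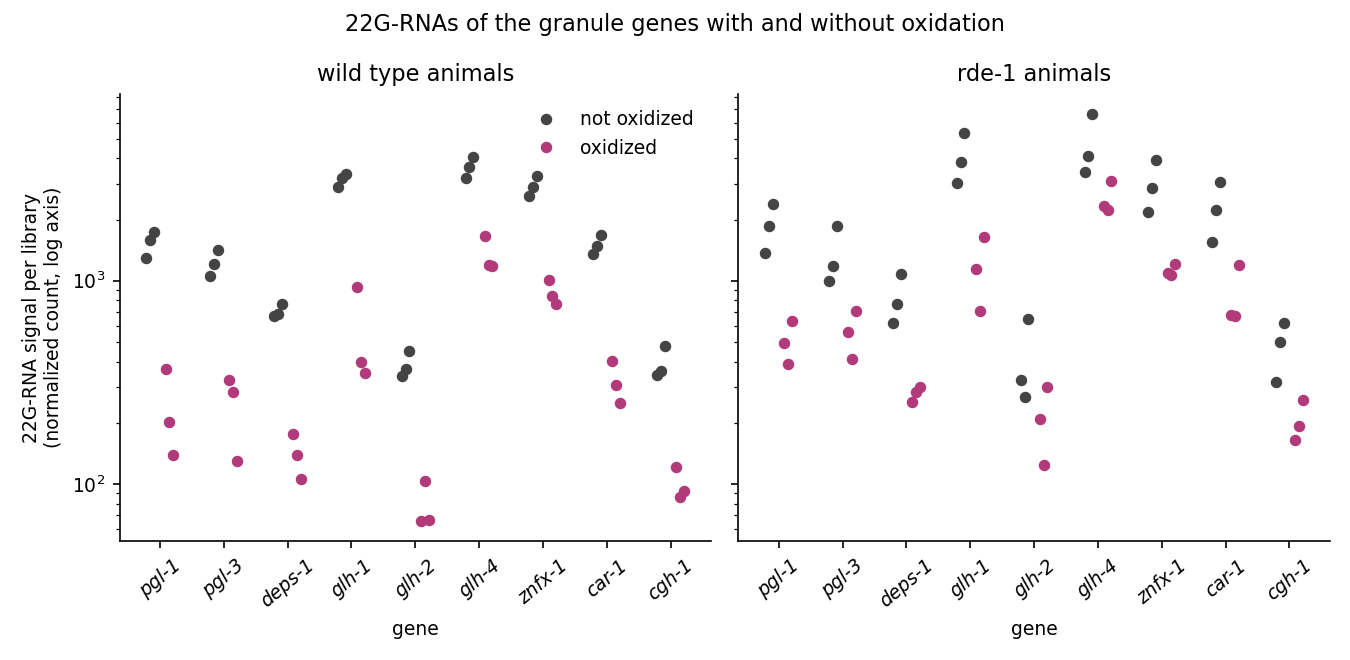
22G-RNA signal of 9 granule genes in each whole-animal library (3 per group, log axis) without oxidation (dark grey) and with periodate oxidation (pink), in wild type on the left and rde-1 on the right. Oxidized libraries lie below all not oxidized libraries for every gene in wild type and for every gene but glh-2 in rde-1.

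For every one of the 9 genes the fall was smaller in rde-1 than in wild type, by 0.38 for znfx-1 to 1.36 for glh-2 on the log2 scale, but none of these differences passed the test. In the limma contrast of the 2 effects 0 of 9 were called, with adjusted p-values of 0.239 to 0.492, and 3 (pgl-3, deps-1 and glh-2) had an unadjusted p under 0.05. Across all features 0.0345% of 11610 were called. The median of the 9 was 0.82 and that of the CSR-1 class 0.93. When each library was centred on the CSR-1 class, the difference changed sign for 6 of the 9.

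The CSR-1 class as a whole moved with oxidation in the same libraries. Its share of all listed small RNA signal was 7.84% to 11.3% in wild type and 2.03% to 2.76% after oxidation, and 9.50% to 16.9% and 3.68% to 5.59% in rde-1. Within that class, the 10 granule genes together held 1.57% to 1.59% in wild type, 1.32% to 1.60% in oxidized wild type, 1.49% to 1.71% in rde-1 and 1.39% to 1.59% in oxidized rde-1 libraries. The part of developmental stage, which the labels leave in conflict for the oxidized libraries, was not tested.

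In the HRDE-1 and WAGO-1 IPs, 22G-RNAs of all 10 granule genes were below their input. With 1 library for each fraction there is no test and no replicate check. The reads behind these values are unknown and no source used here states how the table was scaled, so the place within the CSR-1 class is given beside each ratio. In the HRDE-1 IP the ratio to input ran from 0.377 to 0.803 with a median of 0.541; the class median was 0.565, and 95.1% of 2789 class loci with an input of at least 10 were below 1. In the WAGO-1 IP it ran from 0.143 to 0.494 with a median of 0.300; the class median was 0.616, and 74.7% of 2529 class loci were below 1. Loci of the WAGO class had median ratios of 1.36 and 1.29.

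The lowest ratios in both IPs were those of cgh-1, whose signal of 105 in the HRDE-1 input and 39.5 in the IP gave 0.377, at percentile 1.25 of the class. In the WAGO-1 fractions its signal was 61.2 and 8.77, a ratio of 0.143 at percentile 0.119. Low in both were also car-1, with ratios of 0.454 and 0.219 at percentiles 6.06 and 1.86, and pgl-1, with 0.460 and 0.205 at percentiles 7.21 and 1.15. The place of glh-4 in the class was high in one IP and low in the other. Its signal of 472 in the HRDE-1 input and 379 in the IP gave 0.803 at percentile 89.2, whereas 441 and 127 in the WAGO-1 fractions gave 0.288 at percentile 8.62.

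For glh-1 the ratios were 0.711 (percentile 80.9) in the HRDE-1 IP and 0.410 (percentile 26.5) in the WAGO-1 IP. The ratios of glh-2 were 0.559 and 0.494, and those of pgl-3 0.500 and 0.494, the 2 highest of the WAGO-1 IP. The ratios of deps-1 were 0.525 and 0.282, and those of znfx-1 0.648 and 0.398. For meg-1, 0.556 and 0.311 rested on input signals of only 7.48 and 6.84, below the minimum used for the class.

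**Figure D5:**
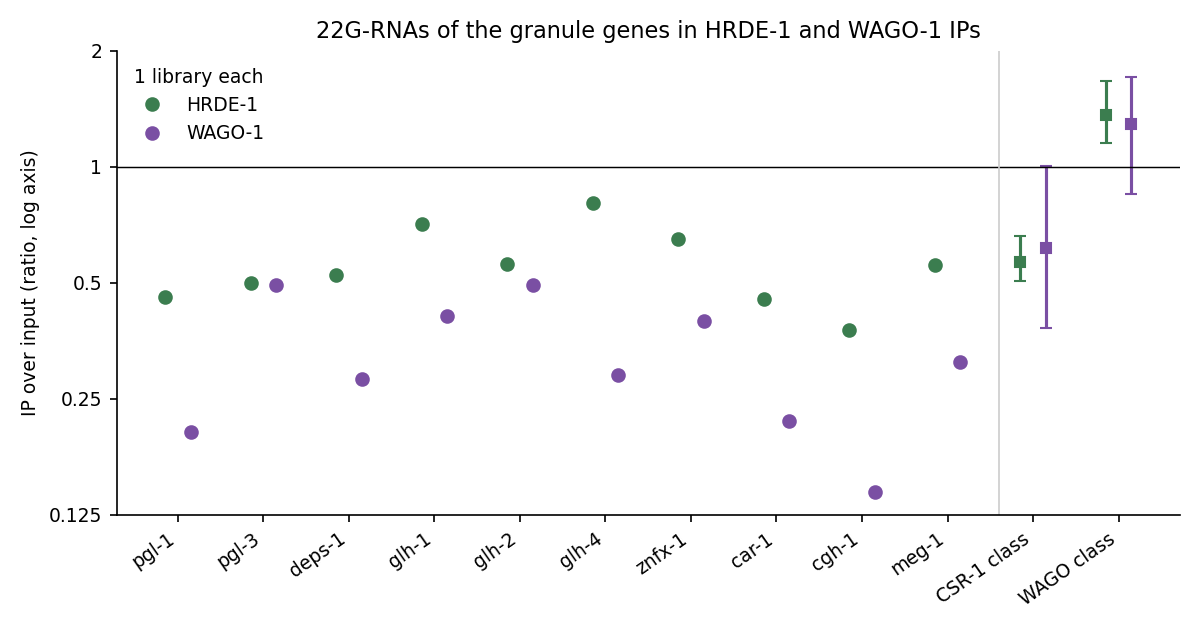
Ratio of IP to input for the 22G-RNAs of each granule gene in the HRDE-1 IP (green) and the WAGO-1 IP (purple), 1 library per fraction, on a log axis; squares with bars give the median and quartiles of the CSR-1 and WAGO classes. All 20 points lie below 1, from 0.143 for cgh-1 in the WAGO-1 IP to 0.803 for glh-4 in the HRDE-1 IP.

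Over the 18 gonad and whole-animal small RNA libraries, with each table centred, the 22G-RNAs of 9 of the genes moved closely together. Pearson's r between pairs of them ran from 0.894 to 0.991 over 36 pairs, with a median of 0.969. These points share libraries, depth and the large oxidation difference, and the same genes had a median r of 0.850 to 0.903 with CSR-1 class loci in general. For none of the 9 genes was another member the most similar feature. Whether they moved together more than other CSR-1 class loci of like abundance was not tested. The features most like single members were icp-1 for car-1 (r = 0.996), B0273.3 for pgl-3 (r = 0.996), dnc-1 for pgl-1 (r = 0.996) and set-31 for glh-1 (r = 0.994), each a CSR-1 class locus. The lowest median r with the other members was that of glh-2.

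Rows for 26G-RNAs, the primary class bound by ALG-3/4 or ERGO-1, were present in the whole-animal tables for 5 of the genes and held little signal. The highest single values were 14.2 for glh-4 and 12.6 for deps-1. Those of pgl-1, pgl-3 and cgh-1 did not exceed 2.66, and cgh-1 was at 0 in 11 of 12 libraries.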

How the data were processed

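Per the submitters' processing notes, the gonad mRNA libraries name DESeq2 1.18.1, RSEM 1.3.0, STAR 2.5.0a and Trimmomatic 0.35, and the small RNA libraries of the gonad and oxidation sets name DESeq2 1.18.1. The deposited signal is a normalized count per gene or locus, and for the gonad and oxidation small RNA libraries 100% of values were whole multiples of 1 read's worth (tolerance 0.1). The authors' signal in the IP table has no stated scaling. No source used here states the genome build.

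From these files, log2(value + 1) was fitted with limma 3.58.1 (R 4.3.3, trend) over all features with a mean of at least 10, and p-values were adjusted by Benjamini-Hochberg over all of them; a call is an adjusted p under 0.05. Each group had 3 libraries, each comparison was fitted within 1 table, and the difference of oxidation effects in 1 fit over both. IP ratios and 22G-RNA over mRNA ratios used (value + 1) for their logarithms and percentiles. Recovered reads were tested with edgeR 4.0.16 as an alternative. The other alternatives were TMM factors, equal totals, centring on the CSR-1 class, a pseudocount of 5, no filter, the replicate number as a block and leaving out libraries; centring on germline markers was added after seeing the data. The procedures were tested on simulated data with planted changes much larger than the gonad differences given here. Those simulations do not cover such small differences or the choice of scaling. All 10 genes are named; by rule, so are at most 4 called genes of each related list with the lowest adjusted mRNA p and at most 4 features most like a member. Further list members (lsm-1, those called for 22G-RNA, and markers) were named after their values were seen. Genes and lists were chosen with earlier results of these data known. No sequences are shown.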

Additional observations from a re-analysis of the deposited data

How the results depend on the processing

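Gonad mRNA: leaving out 1 library at a time gave 3 to 6 genes called lower and 0 higher, beside 434 to 1112 of all tested mRNAs called lower. Equal totals gave 3, beside 7.71% of all mRNAs. Centring on germline markers, chosen after seeing the data, gave 0 called, beside 99 lower and 2575 higher of all 8750. It turned glh-1, car-1 and meg-1 to 0.020, 0.053 and 0.093, with the median of all tested mRNAs at 0.17. Gonad 22G-RNA: against 0 called, TMM factors called 7 lower, edgeR on recovered reads 6 and equal totals 4; without henn-1 library 1 there was 1 lower and 2 higher, so leaving out 1 library gave 0 to 1 lower and 0 to 2 higher. The differences that changed sign were deps-1, car-1, cgh-1 and meg-1 under TMM factors (-0.12, -0.11, -0.17 and -0.23) and in edgeR (-0.039, -0.034, -0.090 and -0.22), and meg-1 under equal totals (-0.061). Leaving out 1 library moved pgl-3 between -0.10 and 0.041, glh-4 between -0.12 and 0.016 and meg-1 between -0.32 and 0.20; the first 2 turned positive without wild type library 3. Oxidation: leaving out 1 library gave 9 called lower in wild type and 7 to 9 in rde-1. Centring each library on its CSR-1 class median shifted the differences by 2.20 in wild type and 1.35 in rde-1. The median difference of the class was then -0.17 in wild type and -0.063 in rde-1. This centring gave 1 called lower and 2 higher in wild type, and 0 lower in rde-1. It turned glh-4, znfx-1 and cgh-1 to 0.76, 0.45 and 0.23 in wild type. In rde-1 it turned pgl-3, glh-2, glh-4 and cgh-1 to 0.11, 0.40, 0.51 and 0.16. The difference between genotypes then changed sign for deps-1 (-0.0072), glh-1 (-0.058), glh-4 (-0.25), znfx-1 (-0.47), car-1 (-0.022) and cgh-1 (-0.069), and 0 were called by limma under each of the alternatives run, where up to 8 had an unadjusted p under 0.05. The median log2 IP ratio went from -0.87 to -0.81 with a pseudocount of 5, -1.01 with equal totals and -0.084 relative to the class median for HRDE-1, and from -1.54 to -1.42, -1.84 and -0.88 for WAGO-1; relative to the class, glh-1, glh-4 and znfx-1 lay above it in the HRDE-1 IP by 0.29, 0.47 and 0.16. There meg-1 lay above the class by 0.069 only on the scale of log2(value + 1), since its plain ratio of 0.556 was below the class median of 0.565. The cause of these changes was not tested. The median log2 ratio of 22G-RNA to mRNA, -1.51, stayed between -1.52 and -1.50 when libraries were left out.

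The replicate numbers were not taken as pairs, since in no comparison did every same-numbered pair of libraries correlate above 0.1. The correlations were 0.20, -0.60 and -0.45 in gonad mRNA, -0.12, 0.12 and -0.039 in gonad 22G-RNA, 0.059, 0.027 and 0.051 in wild type oxidation, where every library correlated best with its own number, and 0.014, 0.013 and 0.21 in rde-1 oxidation, where not every one did. With the replicate block 5 mRNAs were called lower, 1 gonad 22G-RNA locus (glh-1) lower, and 9 loci lower in each oxidation comparison, glh-2 entering in rde-1 (limma adjusted p = 0.00308). Depth limits meg-1, whose 22G-RNA values rested on at most 66 reads per library.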
